A study of Mus musculus with 9 samples.

Results

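The genes described here are 8 regulators of the thymic medulla and of the NF-kB route that builds it: Aire, Fezf2, Tnfrsf11a, Relb, Ltbr, Traf6, Nfkb2 and Cd80. They were chosen by symbol among the 22206 transcript clusters (array features that each stand for a transcript) of 9 Clariom S mouse arrays. Each of the 8 symbols had 1 cluster, so all 8 were measured. The arrays held total RNA of fetal thymic lobes of C57BL/6 mice at e13.5, with 3 arrays for each of 3 genotypes. Wild type animals were labelled wt. The compound mutants, labelled Foxn1933/1089, carry 2 different altered alleles of Foxn1, the transcription factor that thymic epithelium needs to differentiate (here, Foxn1 mutants). The mice labelled Tbx1neo2/neo2 are homozygous for an altered allele of Tbx1, a transcription factor needed to form the pouches that give rise to the thymus (here, Tbx1 mutants). Lobes were taken whole and no cells were sorted, and the labels name no Cre or transgene. Sample titles of all wild type and Foxn1 mutant arrays begin with Foxn, and those of all Tbx1 mutants with Tbx. No source used here says what this prefix means. Any effect that goes with the prefix cannot be told apart from the Tbx1 genotype. Whether the 3 arrays of a genotype stem from different embryos is not stated, and p-values then cover only the spread among these samples, which may be technical.

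As background, medullary thymic epithelial cells display proteins of other tissues so that developing T cells that recognise them can be removed. AIRE and FEZF2 are the nuclear factors that switch on many of these tissue antigens, and CD80 is a costimulatory surface protein of mature medullary cells. The cells mature under signals of the TNF family: RANK (Tnfrsf11a) and the lymphotoxin beta receptor (Ltbr) on the epithelium receive ligands made by lymphoid tissue inducer cells and thymocytes. The adaptor TRAF6 passes RANK signals to the kinases of the route. In the non-canonical branch the kinase NIK leads to processing of the Nfkb2 product p100 to p52, which enters the nucleus with RELB.

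At e13.5 only part of the route read above background on these arrays. Ltbr stood above the 95th percentile of the negative controls on all 9 arrays, but under their 99th percentile (11.67 to 13.27). Traf6 and Nfkb2 read in a middle range, and Aire, Fezf2 and Cd80 never rose above the median of the negative controls. Tnfrsf11a and Relb passed that median on 1 array each. None of the 8 genes was called between genotypes. The array values themselves do not say how many molecules a gene had, and levels of different clusters are not set against each other because probes differ in response.

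Promoter sequence was examined because NF-kB proteins are known to act on genes of their own route. RefSeq windows of 250 bases before the start site (build GRCm38.p6) were found for 7 of the 8 genes, all but Relb. The consensus NF-kB motif of 10 bases was searched on both strands and matched in 2 of the 7 genes, Nfkb2 and Fezf2. Over all genes with a window, 8.23% held a match (7.25% of 32851 windows). Nfkb2 had 3 windows, and each held a match. The first, at chr19:46304487-46304736 on the plus strand, is shown because it held 3 matches beside the start site of the member that varied most between arrays; capitals mark the matched bases, and the window ends at the base before the start site.
Nfkb2: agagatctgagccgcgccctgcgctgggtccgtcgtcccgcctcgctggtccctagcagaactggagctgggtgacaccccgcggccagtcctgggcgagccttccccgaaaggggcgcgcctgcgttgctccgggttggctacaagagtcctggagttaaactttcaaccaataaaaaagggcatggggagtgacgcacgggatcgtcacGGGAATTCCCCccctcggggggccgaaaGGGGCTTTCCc
The matches GGGAATTCCC and GGAATTCCCC overlap and start 39 and 38 bases before the start site, and GGGGCTTTCC starts 11 bases before it. The other windows of Nfkb2 held GGAATGTCCC and GGGACTTTCC, 236 and 225 bases before their start sites. Fezf2 held GGGACACCCC, 173 bases before its start site. Aire, shown for comparison as a member without a match, had no match in its window at chr10:78043611-78043860 on the minus strand.
Aire: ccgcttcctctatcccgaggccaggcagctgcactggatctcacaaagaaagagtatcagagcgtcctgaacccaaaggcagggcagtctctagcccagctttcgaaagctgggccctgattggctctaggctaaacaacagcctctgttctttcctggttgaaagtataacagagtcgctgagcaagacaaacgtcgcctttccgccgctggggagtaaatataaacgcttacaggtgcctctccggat
A match describes letters only and is not evidence of a bound site, and no match says only that these letters are not in this window.

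A pair of arrays stood apart in thymic markers, and a further array in muscle markers, before any comparison. The cortical epithelium markers Prss16, Psmb11, Ccl25, Ly75 and Foxn1 had a mean log2 value of 5.03 on replicate 1 of wild type and 5.36 on replicate 2 of the Foxn1 mutants, against 9.29 to 10.07 on the other 7. The 4 measured T lineage markers averaged 4.96 and 4.94 on these arrays and 8.04 to 10.62 elsewhere, so the labelled tissue was borne out by its markers on 7 of 9 arrays. The general epithelial markers Epcam, Krt8, Krt18, Cdh1 and Cldn7 averaged 11.33 and 11.29 there and 12.31 to 13.22 elsewhere. They were not uniformly low. Krt8 read 12.12 and 12.37 (15.62 to 15.97 elsewhere) and Krt18 11.48 and 11.06 (15.25 to 15.92 elsewhere). Cdh1 was less reduced, at 14.78 and 15.25 (15.29 to 16.25 elsewhere). Epcam, at 8.33 and 8.82, lay within its range on the other arrays. Cldn7 was highest of all arrays on replicate 1 of wild type (9.94) and within that range on replicate 2 of the Foxn1 mutants (8.94). The 5 measured neuron markers averaged 12.93 on replicate 1 of wild type, against 5.41 to 5.98 elsewhere. The heart muscle markers Myl7 and Nppa read 10.71 and 7.55 on replicate 2 of the Foxn1 mutants, above all other arrays. The other 3 heart muscle markers, Tnnt2, Actc1 and Myl4, were highest on replicate 2 of wild type, at 9.25, 9.83 and 12.49. They were next highest on replicate 2 of the Foxn1 mutants, at 8.78, 8.13 and 11.46. The 5 heart muscle markers averaged 9.33 on replicate 2 of the Foxn1 mutants, against 5.36 to 7.84 elsewhere. The 4 skeletal muscle markers were highest on replicate 2 of wild type, with a mean of 9.21 against 4.58 to 6.59 elsewhere. The mesenchyme markers (4 measured) averaged 11.94 to 12.72 in wild type, 13.05 to 13.79 in the Foxn1 mutants and 13.43 to 13.73 in the Tbx1 mutants, so both mutant genotypes lay above wild type. The Foxn1 transcript itself did not check the labels: it was 7.78 to 10.35 in wild type and 8.73 to 9.67 in its mutants. The array medians were 5.09 to 5.20.

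To judge whether a gene was above background, its value on each array was set against the 5222 negative-control features of that array. Their median was 4.27 to 4.94 and their 95th percentile 8.03 to 9.70. By the 95th percentile, 7 of the 8 genes stayed at the negative-control level on all 9 arrays, all but Ltbr. This is a strict line, since 70.0% of all clusters also stayed under it on every array. By the median, 3 of the 8 genes stayed at or under it on all 9 arrays (Aire, Fezf2 and Cd80), as did 33.7% of all clusters. Both shares lie too near those of all clusters to say anything particular of these genes as a list.

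**Figure D1:**
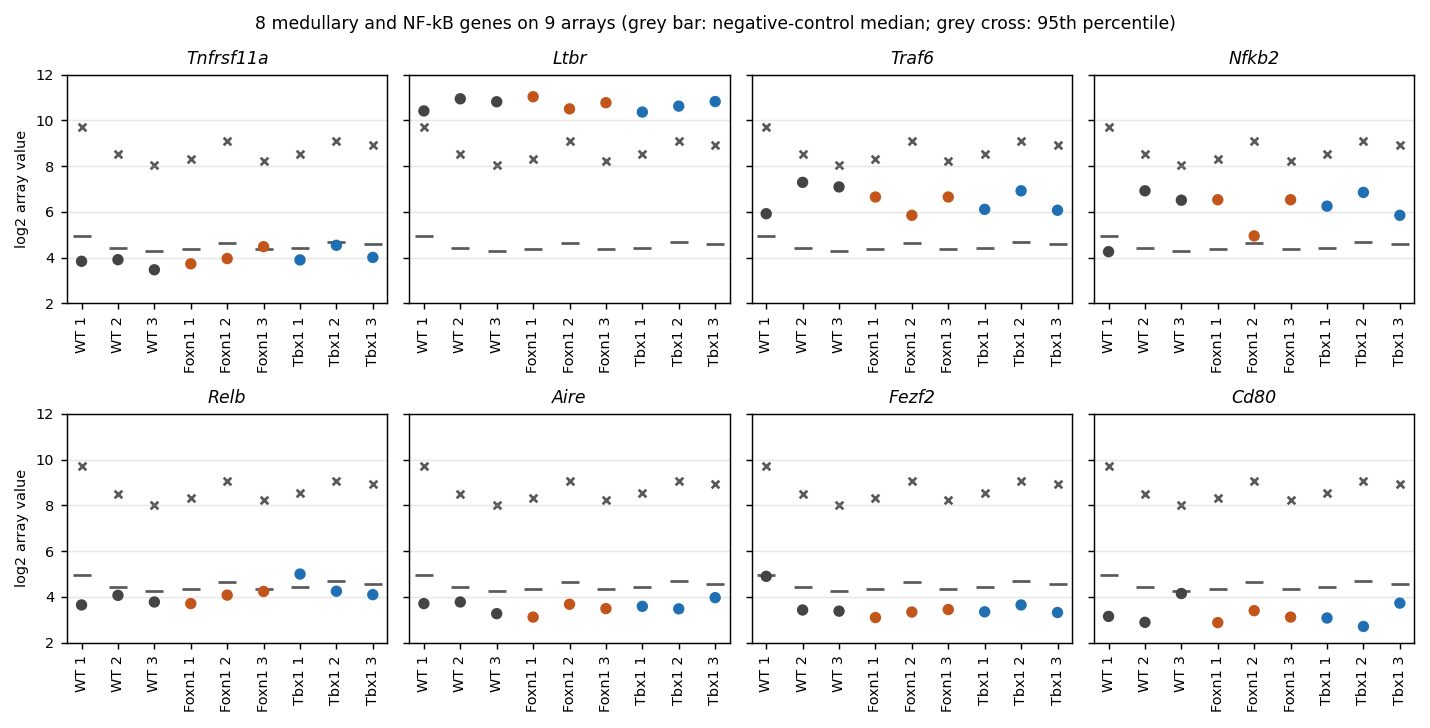
Log2 array value of each of the 8 genes (vertical axis) on each array (horizontal axis; dark grey points wild type, orange Foxn1 mutants, blue Tbx1 mutants), with the median (grey bar) and the 95th percentile (grey cross) of that array's negative controls. Ltbr lies between 10.36 and 11.03, above the crosses on all 9 arrays, while Aire, Fezf2 and Cd80 lie at or under the bars.

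Among the receptors, Ltbr, which receives lymphotoxin and LIGHT, read 10.41, 10.94 and 10.81 (wild type), 11.03, 10.50 and 10.77 (Foxn1 mutants) and 10.36, 10.62 and 10.82 (Tbx1 mutants) on the log2 scale. The genotypes overlapped. Between 96.5% and 98.6% of the negative controls of an array lay under it. Its values on the pair of arrays low in cortical and T lineage markers were 10.41 and 10.50. The lobes were not sorted, so which cells held the Ltbr RNA cannot be told from these values. Tnfrsf11a, the receptor for RANK ligand, read 3.84, 3.91 and 3.47 (wild type), 3.73, 3.96 and 4.48 (Foxn1 mutants) and 3.90, 4.54 and 4.01 (Tbx1 mutants). Only Foxn1 mutant replicate 3 exceeded its array's negative-control median, with 52.5% of the controls below it.

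Traf6, the adaptor that carries RANK and Toll-like receptor signals, read 5.92, 7.29 and 7.09 (wild type), 6.65, 5.85 and 6.65 (Foxn1 mutants) and 6.11, 6.92 and 6.07 (Tbx1 mutants). It was above the negative-control median on all 9 arrays and under the 95th percentile on all 9. Its lowest values were on Foxn1 mutant replicate 2 and wild type replicate 1, and the genotypes overlapped.

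Nfkb2, the gene of p100, read 4.26, 6.92 and 6.51 (wild type), 6.53, 4.95 and 6.53 (Foxn1 mutants) and 6.25, 6.85 and 5.85 (Tbx1 mutants). It had the largest SD of the 8 genes over the 9 arrays, 0.90 log2 units. Wild type replicate 1 was the lowest, under its negative-control median, and Foxn1 mutant replicate 2 the next, while the other 7 arrays lay within 5.85 to 6.92. On those 7 arrays 72.1% to 86.8% of the negative controls lay under Nfkb2, against 36.8% and 56.2% on the low pair. These are the arrays on which the leukocyte gene Ptprc read 6.44 and 5.87, against 10.26 to 12.36 elsewhere, and the cortical protease gene Prss16 4.24 and 4.45, against 13.87 to 14.43. The part of these markers in the low Nfkb2 was not tested. In bulk lobes, fewer cells of a type and less RNA per cell cannot be told apart.

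Relb, the partner of p52, read 3.65, 4.07 and 3.78 (wild type), 3.71, 4.08 and 4.24 (Foxn1 mutants) and 5.00, 4.25 and 4.10 (Tbx1 mutants). Only Tbx1 mutant replicate 1 exceeded the negative-control median, with 61.9% of the controls below it. The 3 Tbx1 mutant arrays lay above the 3 wild type arrays, with 4.10 and 4.07 as the nearest values.

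Among the products of the mature medulla, Aire read 3.71, 3.78 and 3.27 (wild type), 3.12, 3.68 and 3.49 (Foxn1 mutants) and 3.59, 3.48 and 3.97 (Tbx1 mutants). It never exceeded 35.5% of the negative controls of its array, and the genotypes overlapped. Fezf2 read 4.90, 3.43 and 3.38 (wild type), 3.10, 3.34 and 3.45 (Foxn1 mutants) and 3.35, 3.65 and 3.32 (Tbx1 mutants). The single higher value was on wild type replicate 1, where it stood above 49.2% of the negative controls, still under their median of 4.94. The neuron markers were high on that array, with Th at 12.44 (2.56 to 4.07 elsewhere) and Dbh at 12.04 (2.80 to 3.47 elsewhere). The part of this neuronal RNA in the Fezf2 value was not tested.

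Cd80 read 3.15, 2.89 and 4.15 (wild type), 2.88, 3.40 and 3.12 (Foxn1 mutants) and 3.08, 2.71 and 3.73 (Tbx1 mutants). It was under the negative-control median on all 9 arrays, and nearest to it on wild type replicate 3, above 46.9% of the controls. CD80 is also carried by dendritic cells, macrophages and B cells. The 3 measured B lineage markers, Cd79a, Pax5 and Ms4a1, were under the negative-control median on all 9 arrays. Of the 6 measured dendritic cell and macrophage markers only Flt3 was, and their mean was 5.39 to 6.84 over the arrays.

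The comparisons between genotypes ask whether the early medullary program differs in lobes with altered Foxn1 or Tbx1. With limma, 0 of the 8 genes were called between Foxn1 mutants and wild type at an adjusted p of 0.05, where 0% of all clusters were called (898 clusters, 4.04%, had an unadjusted p under 0.05). The unadjusted p was under 0.05 for 0 of the 8. Between Tbx1 mutants and wild type 0 of 8 were called, where 0.0135% of all clusters were, and between Tbx1 and Foxn1 mutants 0 of 8, where 0% were. In the last comparison 0 of 8 had an unadjusted p under 0.05, against 2.98% of all clusters, and 0 of 8 did not overlap, against 8.92%. In Foxn1 mutants against wild type 0 of 8 did not overlap, against 8.29%. The adjusted p was 1.00 for every one of the 8 genes in the first 2 comparisons and 0.999 in the third. A p that misses the threshold does not show that levels were equal, so the intervals are given.

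**Figure D2:**
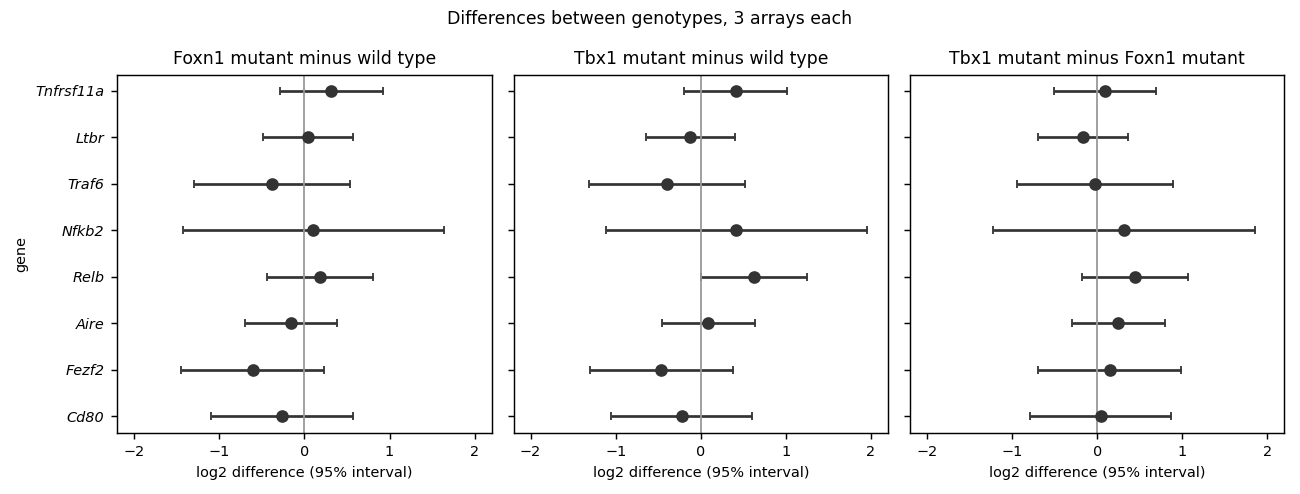
Log2 difference of each of the 8 genes (horizontal axis) with its 95% interval from the limma model, for Foxn1 mutants against wild type, Tbx1 mutants against wild type and Tbx1 against Foxn1 mutants, 3 arrays per genotype. All intervals include 0 but that of Relb between Tbx1 mutants and wild type (0.0024 to 1.24), which was not called after adjustment, and the intervals of Nfkb2 are the widest.

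Ltbr gave the narrowest intervals. It differed by 0.04 ± 0.23 (SE, n = 3 per genotype) between Foxn1 mutants and wild type, with a 95% interval of -0.49 to 0.57, and by -0.12 ± 0.23 (-0.65 to 0.41) between Tbx1 mutants and wild type. A change of 1 log2 unit in Ltbr lay outside both intervals. The sign of the first difference was not stable: it was -0.11 without wild type replicate 1 and -0.09 without Foxn1 mutant replicate 1.

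Traf6 was 6.77 ± 0.74 (SD, n = 3) in wild type, 6.39 ± 0.46 in the Foxn1 mutants and 6.37 ± 0.48 in the Tbx1 mutants. The difference from wild type was -0.38 ± 0.41 (SE) in the Foxn1 mutants, with an interval of -1.30 to 0.54, and -0.40 ± 0.41 in the Tbx1 mutants, with an interval of -1.32 to 0.51. Sample titles hold 3 date codes (A, B and C below), and no source used here says what they date. Within code A the Foxn1 mutant lay 1.24 log2 units under wild type (a difference of -1.24, 1 array each) and within code B the difference was -0.64. For Tbx1 mutants it was -0.98 within code A and 0.57 within code C, where the wild type array is replicate 1. Both comparisons use the same wild type arrays. Traf6 was highest on wild type replicate 2, the array highest in skeletal muscle markers, and without it the differences were -0.12 and -0.14.

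Nfkb2 was 5.90 ± 1.43 (SD, n = 3) in wild type, 6.00 ± 0.91 in the Foxn1 mutants and 6.32 ± 0.50 in the Tbx1 mutants. The differences from wild type, 0.10 ± 0.68 (SE, interval -1.43 to 1.64) and 0.42 ± 0.68 (interval -1.12 to 1.95), were smaller than the spread among wild type arrays. Both turned with a single array: without wild type replicate 1 they were -0.71 and -0.40. Without wild type replicate 2, which had the highest Nfkb2 value and high muscle markers, they were 0.61 and 0.93. Without wild type replicate 1 and replicate 2 of the Foxn1 mutants they were -0.19 and -0.40, and no gene of the 8 was called in that fit. Within date code A the values were -1.56 and -0.26, within code B -0.39 for the Foxn1 mutants, and within code C 2.08 for the Tbx1 mutants. The sign of an Nfkb2 difference between these genotypes therefore could not be read from 3 arrays each.

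Relb was the only one of the 8 whose arrays did not overlap in a comparison. Tbx1 mutants read 4.45 ± 0.48 (SD, n = 3) against 3.83 ± 0.21 in wild type, a difference of 0.62 ± 0.28 (SE, 95% interval 0.0024 to 1.24). It was not called after adjustment. Over all clusters, 5.18% did not overlap with Tbx1 mutants higher (9.45% in either direction), and 3.79% had an unadjusted p under 0.05, so 1 gene of 8 is near the share of all clusters. The difference was 1.23 within code A and 0.53 within code C, and 0.35 to 0.80 when single arrays were dropped, the lowest without Tbx1 mutant replicate 1. On the same arrays the 4 mesenchyme markers were higher in the Tbx1 mutants, 3 of them without overlap. The 3 parathyroid markers were lower without overlap, with a median difference of -6.62, and the 4 red cell markers were lower with a median of -1.84, of which Alas2 did not overlap. The part of these markers in the Relb difference was not tested. Since only 1 of the 6 values exceeded its negative-control median, it is a difference between values at background and no fold is given.

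For Tnfrsf11a, Aire, Fezf2 and Cd80 the differences are likewise between values at or near the negative-control level. Against wild type, Tnfrsf11a differed by 0.32 ± 0.27 (SE, n = 3 per genotype) in the Foxn1 mutants and 0.41 ± 0.27 in the Tbx1 mutants. Aire differed by -0.16 ± 0.24 and 0.09 ± 0.24, and Cd80 by -0.26 ± 0.37 and -0.22 ± 0.37. Fezf2 differed by -0.61 ± 0.38 and -0.46 ± 0.38, and without wild type replicate 1 the values were -0.11 and 0.03. Between the mutant genotypes the 8 differences ran from -0.16 (Ltbr) to 0.44 (Relb), and none of their intervals excluded 0.

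The 8 genes as a list had a median difference of -0.06 between Foxn1 mutants and wild type, with 4 of 8 higher, where all clusters had a median of 0.02 with 52.4% higher. Between Tbx1 mutants and wild type the median was -0.02 with 4 of 8 higher, against 0.01 and 52.2% over all clusters. Between Tbx1 and Foxn1 mutants it was 0.12 with 6 of 8 higher, against -0.0084 and 48.7% over all clusters.

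The rest of the route was read from 35 other genes of the route in 5 lists, of which 31 were measured. None was called in any of the 3 comparisons, and the medians over the 31 genes were 0.14 (Foxn1 mutants against wild type), 0.04 (Tbx1 mutants against wild type) and -0.05 (Tbx1 against Foxn1 mutants). Above the 95th percentile of the negative controls on all 9 arrays were 4 of the 31: the TNF receptor Tnfrsf1a (10.24 to 11.36), the kinase gene Map3k7 (10.53 to 11.13) and its partner Tab2 (10.46 to 11.19), and the inhibitor gene Nfkbib (at most 11.45). Of all clusters, 15.2% were above it on all 9 arrays. At or under the median of the negative controls on all 9 arrays were 8 of the 31, against 33.7% of all clusters.

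Of the 6 TNF family ligands, 4 were in that lowest class, against 33.7% of all clusters: Tnfsf11, which encodes RANK ligand, Cd40lg, Lta and Tnf. Tnfsf11 ranged from 2.85 to 3.68 and Cd40lg from 3.33 to 4.40. Ltb, which encodes the membrane-bound chain of the lymphotoxin that Ltbr responds to, was above the median on all 9 arrays. It read 5.57, 8.27 and 8.24 (wild type), 7.50, 5.72 and 8.47 (Foxn1 mutants) and 6.80, 7.85 and 6.49 (Tbx1 mutants). Wild type replicate 1 and Foxn1 mutant replicate 2 were its lowest arrays. The LIGHT gene Tnfsf14 read 5.44 to 6.67 and was above the median on all 9. By the negative-control median, Ltb and Ltbr were thus above background on all 9 arrays, Lta and Tnfsf11 on none and Tnfrsf11a on 1. By the 95th percentile, Ltbr was above on 9 arrays, Ltb on 2, and Lta, Tnfsf11 and Tnfrsf11a on none.

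Among the 5 other receptors, Cd40, a further inducer of medullary maturation, stayed under the negative-control median on all 9 arrays (2.99 to 4.10), as did Tnfrsf1b. The decoy receptor for RANK ligand, Tnfrsf11b, passed the median on 2 arrays, wild type replicates 1 and 2, both at 5.41. Tnfrsf14 was above the median on all 9 arrays, at 6.62 to 7.31.

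Of the 9 measured adaptors and kinases, 6 were above the median on all arrays, against 47.8% of all clusters. Among them was Map3k14, the gene of NIK, at 6.13 to 7.68. Traf5 and Traf1 had the lowest p of this list. Traf5 read 3.58, 3.20 and 3.58 (wild type), 4.60, 4.22 and 4.01 (Foxn1 mutants) and 4.47, 3.99 and 4.08 (Tbx1 mutants). Both mutant genotypes lay above wild type without overlap, by 0.82 ± 0.24 and 0.72 ± 0.24 (SE). It exceeded the negative-control median on 2 of 9 arrays, so this too is a difference at background, and both comparisons rest on the same wild type arrays. Traf1 was higher without overlap in the Foxn1 mutants, by 0.85 ± 0.27 (SE), and above the median on Foxn1 mutant replicate 2 alone. These 2 of 31 genes compare with 4.86% of all clusters that did not overlap with Foxn1 mutants higher. With Tbx1 mutants higher than wild type, 1 of 31 (Traf5) did not overlap, against 5.18% of all clusters. Of the 4 mesenchyme markers, 2 also lay higher in the Foxn1 mutants without overlap, and their part in these differences was not tested.

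Of the 8 inhibitors, 5 were above the median on all arrays, against 47.8% of all clusters. Nfkbia, the gene of IkB alpha and a classical NF-kB target, ranged from 6.81 on wild type replicate 1 to 8.80 on wild type replicate 2. Tnfaip3, the gene of A20, passed the median on 5 arrays. Among the 3 measured subunit and coactivator genes, Rela read 7.26 to 8.36 and Rel 5.42 to 7.30, both above the median on all arrays. Bcl3 passed it on 7 arrays, at 3.63 to 5.59.

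**Figure D3:**
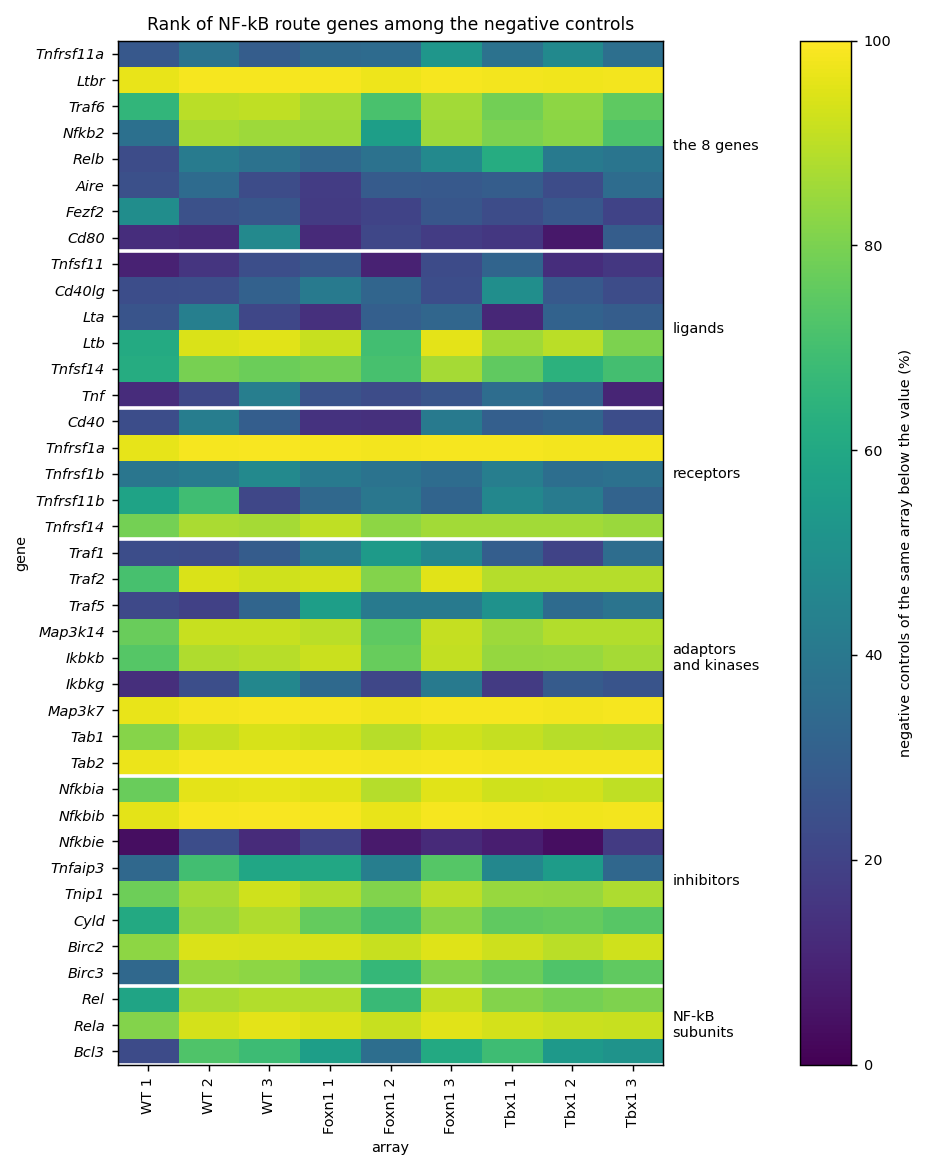
Share of the negative controls of the same array that lie below each gene (colour, in percent), for the 8 genes and the 31 measured route genes (rows, ordered by role) on the 9 arrays (columns). Ltbr, Tnfrsf1a, Map3k7, Tab2 and Nfkbib are bright on all arrays, while the ligands Tnfsf11, Cd40lg, Lta and Tnf and the receptor Cd40 are dark on all.

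Traf6 and Nfkb2 had the same pair of lowest arrays, wild type replicate 1 and Foxn1 mutant replicate 2. So did 9 of the 31 route genes (29.0%), among them Ltb, Nfkbia, Rel, Nfkbib and Bcl3, against 12.1% of all clusters. Of the 20 route genes above the negative-control median on 5 or more arrays it was 8 (40.0%), against 19.3% of such clusters. This pattern was noted after the values were seen and is given as a count. The other 6 genes of the 8 did not share it. Ltbr was lowest on Tbx1 mutant replicate 1 (10.36), with the pair next at 10.41 and 10.50. Tnfrsf11a, Relb, Aire, Fezf2 and Cd80 read at or near the negative-control level.

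**Figure D4:**
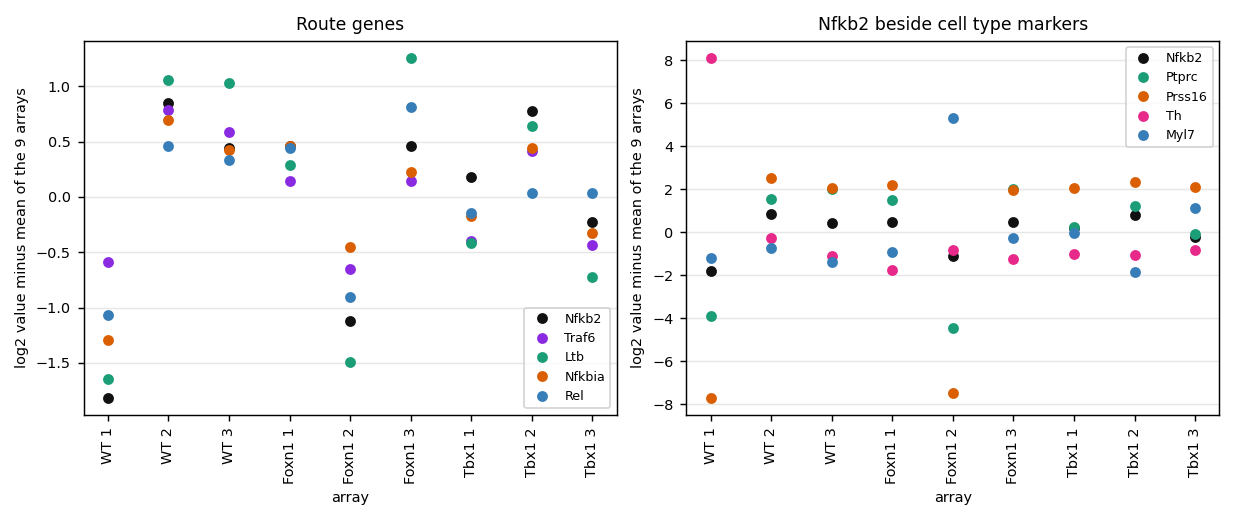
Log2 value minus the mean over the 9 arrays (vertical axis) on each array (horizontal axis), for Nfkb2 and Traf6 with the route genes Ltb, Nfkbia and Rel (left) and for Nfkb2 with markers of leukocytes (Ptprc), cortical epithelium (Prss16), neurons (Th) and atrial muscle (Myl7) (right). The genes at left are all lowest on replicate 1 of wild type and replicate 2 of the Foxn1 mutants. This held for 9 of the 31 measured route genes, Ltb, Nfkbia and Rel among them. Ptprc and Prss16 are also lowest on these arrays, and Th and Myl7 are each high on 1 of the pair.

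The genes with the profile nearest to a member over the 9 arrays were found by the root mean square distance between mean-centred log2 values. For Ltbr, among 3016 genes above the 95th percentile of the negative controls on all arrays, they were Ggnbp2 (distance 0.10), Dcaf7 (0.10) and H4c3 (0.10), against an SD of 0.24 for Ltbr itself. H4c3 belongs to a family of near-identical histone genes. With the negative-control median as the level, the nearest to Traf6 (SD 0.53) were Anks1 (0.16), Myc (0.19) and Uhrf1 (0.20), and the nearest to Nfkb2 (SD 0.90) were Tapbpl (0.21), Rad50 (0.22) and Cstb (0.23). All 9 arrays enter these distances, so the low pair of arrays weighs heavily in those for Nfkb2.

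The genes that the mature medulla is known for were read beside the regulators. Of 8 measured antigens known to depend on AIRE or FEZF2, 5 stayed at or under the negative-control median on all 9 arrays: Ins2, Csn2, Tff3, Fabp9 and Calb1. So did 33.7% of all clusters. Sbsn, also a gene of stratified epithelium, was above the median on all arrays. It read 8.42, 8.66 and 7.96 (wild type), 7.90, 7.92 and 8.23 (Foxn1 mutants) and 7.59, 6.94 and 7.79 (Tbx1 mutants). The Tbx1 mutants lay lowest without overlap, by -0.90 ± 0.28 against wild type (SE), and this was not called. Of the 8 antigens, 1 (Sbsn) lay lower without overlap in that comparison, where 4.27% of all clusters did. The parathyroid, red cell and mesenchyme markers given beside Relb moved on the same arrays, and their part in the Sbsn difference was not tested. Ttr and Apob, which other embryonic tissues also make, passed the median on 7 arrays each.

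Of 10 medullary epithelium genes, 6 were above the negative-control median on all arrays, against 47.8% of all clusters. Trp63, the basal epithelial factor, read 11.55 to 13.40, and Hipk2 12.11 to 14.31. Ccl19 and Prdm1 stayed under the median on all 9. Ccl21a, the chemokine of early medullary epithelium that is also made by fetal parathyroid, read 14.57, 12.15 and 13.20 (wild type), 11.38, 11.05 and 12.84 (Foxn1 mutants) and 9.58, 9.49 and 9.56 (Tbx1 mutants). Its difference of -3.76 ± 0.60 (SE) between Tbx1 mutants and wild type was not called (adjusted p = 0.151 from limma). On the same arrays the 3 measured parathyroid markers averaged 11.03 to 13.60 in wild type and 5.37 to 5.92 in the Tbx1 mutants, and their part in the Ccl21a difference was not tested. The claudin gene Cldn4 read 7.65 to 9.38 in wild type and 7.05 to 7.56 in the Tbx1 mutants, an uncalled difference of -1.33 ± 0.46 (SE) without overlap. Of these 10 genes, 3 lay lower in the Tbx1 mutants without overlap (Ccl21a, Cldn3 and Cldn4), where 4.27% of all clusters did. Cldn3 passed the negative-control median on only 4 of 9 arrays. Of the 5 general epithelial markers only Cldn7 also lay lower without overlap, by -2.14 ± 0.23 (SE). It was called (adjusted p = 0.0354 from limma). Ccl21a and the parathyroid gene Pth (14.13) were both highest on wild type replicate 1, which was low in cortical markers. The part of the parathyroid markers in the claudin differences was not tested.

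Of the 6 other costimulation genes, Pdcd1lg2, Cd28 and Ctla4 were at or under the negative-control median on all arrays, like Cd80. So were 33.7% of all clusters. Cd86, the close relative of Cd80, read 4.51 to 5.79 and passed the median on 7 arrays. Cd274, which encodes PD-L1, read 4.92, 8.47 and 8.07 (wild type), 7.94, 3.64 and 8.29 (Foxn1 mutants) and 7.89, 8.68 and 8.23 (Tbx1 mutants). It was low only on the pair of arrays that were low in cortical markers. None of the 6 was called in any comparison.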

How the data were processed

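Total RNA of fetal thymic lobes was amplified, labelled with Affymetrix kits and hybridised to Clariom S arrays, per the labels' protocols. The deposited values were used as given and taken as log2 from their range, and no source used here names the authors' software, normalization or build. Groups are the labelled genotypes. Of 28846 features, the 22206 transcript clusters were fitted with limma 3.58.1 in R 4.3.3 (a term per genotype, all 9 arrays, two-sided, Benjamini-Hochberg over all clusters, threshold 0.05); the fit was tested on simulated data. Errors are SDs over 3 arrays or model SEs. Symbols came from the platform annotation (19572 clusters with 1 symbol, 2634 without). No 2 arrays of a genotype held the same values (at most 0.18% of clusters identical). Figures used matplotlib 3.10.9.

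The members, the 8 other gene lists, the 13 marker lists and the level rule were chosen with earlier results of these data known. All 8 members were named; of each list, any called gene, the 2 of lowest p per comparison and the 2 of highest mean; and the 3 nearest profiles. Chosen after values were seen were the nearest profiles at the negative-control median, the count of lowest arrays and, outside the rule, Tnfsf11, Lta, Tnf, Tnfrsf1b, Ccl19, Cldn3, Prdm1, Ins2, Tff3, Apob, Calb1, Cd28 and Ctla4. Alternatives were other normalizations, a filter on dim clusters, moderation with a trend, date code blocks, fewer arrays and other background levels. The number of arrays limits the precision.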

Additional observations from a re-analysis of the deposited data

How the results depend on the processing

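None of the 8 genes was called in any of the 3 comparisons under any of the 17 alternatives to the limma fit (lowest adjusted p = 0.465, for Nfkb2 between mutants when date codes were a fixed block), and leaving out each array in turn gave 0 called in each. The filter on dim clusters kept only Ltbr, Traf6 and Nfkb2 of the 8, so the other members could not be called there. The count of genes at the negative-control level on all 9 arrays was 7 by the 95th percentile, 6 by the 90th, 8 by the 99th, 5 by the highest background probe and 3 by the median; it was 7 with any 1 array left out. Of 393 recomputed differences, 34 changed sign, all of them uncalled; the cause was not tested. With the date code as a fixed block, between Foxn1 mutants and wild type, Ltbr was -0.0706, Nfkb2 -0.62 and Relb -0.000426; between Tbx1 and Foxn1 mutants, Fezf2 was -0.50, Ltbr 0.0598, Traf6 0.64 and Cd80 -0.21. Traf6 in the last comparison was 0.00628 after quantile normalization and 0.0460 with a random block. Without the pair of arrays low in cortical markers (chosen after seeing the data), Nfkb2 was -0.19 and -0.40 in Foxn1 and Tbx1 mutants against wild type and -0.21 between mutants, and Fezf2 0.0344 in Tbx1 mutants against wild type.

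With any 1 array left out, the differences that changed sign ranged as follows. In Foxn1 mutants against wild type, Ltbr ranged from -0.11 to 0.17, Nfkb2 from -0.71 to 0.63 and Cd80 from -0.52 to 0.11. In Tbx1 mutants against wild type, Aire ranged from -0.0700 to 0.19, Fezf2 from -0.72 to 0.0344, Nfkb2 from -0.40 to 0.93 and Cd80 from -0.50 to 0.15. Between Tbx1 and Foxn1 mutants, Tnfrsf11a ranged from -0.10 to 0.30, Traf6 from -0.30 to 0.13, Nfkb2 from -0.21 to 0.58 and Cd80 from -0.24 to 0.27. No symbol of the 8 had another cluster to try. No paired analysis was possible because the genotype labels carry no replicate numbers that the genotypes share; the date codes that the genotypes do share were fitted as a fixed and as a random block, with the values above.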
